A study of Homo sapiens with 9 samples.

Results

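The DNAJ genes encode the HSP40 co-chaperones. They were defined here as the genes whose symbol is DNAJA, DNAJB or DNAJC followed by a number. This gave 44 of the 17083 genes in the deposited table, with 4 in class A, 12 in class B and 28 in class C. RNA was sequenced from HEK293T cells, a transformed human embryonic kidney line that takes up plasmids readily and whose genotype is labelled wild type. One group overexpressed FLAG-tagged PLK2, a polo-like kinase, and another overexpressed PLK2(D223N), the same kinase with a substitution in its kinase domain. The remaining group received an empty FLAG Vector, and each of these 3 groups has 3 libraries. The series title concerns PLK2, the chaperone HSP90α and IKKβ in microglial activation, whereas the cells measured here are a kidney line, and neither the promoter of the plasmids nor the time after their delivery is given in the sources used here.

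A DNAJ protein binds an HSP70 chaperone through its J domain and makes HSP70 hydrolyse ATP, which locks HSP70 onto an unfolded client protein. Class A proteins carry a J domain, a stretch rich in glycine and phenylalanine, a zinc-binding domain and client-binding domains. Class B proteins lack the zinc-binding domain, and class C proteins share little but the J domain and serve in special places such as the spliceosome, the mitochondrial import motor or clathrin-coated vesicles. A few DNAJ genes, with DNAJB1 as the textbook case, are switched on by heat shock factor when proteins misfold, and a further few by the unfolded protein response of the endoplasmic reticulum.

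In these cells the family was present in bulk, and no member passed the test in any comparison. Libraries held between 14288165 and 16510186 estimated counts. PLK2 RNA followed the labels, at 23744 ± 2384 CPM (counts scaled to library size with TMM factors) in PLK2 libraries, 12358 ± 1650 CPM in PLK2(D223N) libraries and 3.42 ± 0.64 CPM in Vector libraries (SD, n = 3 each). Between the kinase forms, PLK2 over PLK2(D223N), its log2 fold change was 0.94 (SE 0.09, edgeR adjusted p = 4.99e-05), so these groups differ in the amount of transcript as well as in the substitution. Vector libraries were the most spread of the 3 groups. Their chi-square per gene was 17.74 between replicates 1 and 2, 10.81 between replicates 1 and 3 and 2.683 between replicates 2 and 3, against 1.633 to 2.809 for pairs within the other groups. The epithelial and HEK293T marker list, which fits the labelled cell type, summed to 97.7 to 99.8 TPM with PLK2, 98.3 to 101.2 TPM with PLK2(D223N) and 95.2 to 105.4 TPM with Vector. Of its 9 genes 6 were tested, led by KRT18 and KRT8, with EPCAM and CDH1 at a mean of 2.742 and 1.401 TPM, while PAX2, PAX8 and NEFM were too low to test. No leukocyte or endothelial marker was high enough to test, and of the fibroblast markers COL1A1 alone was.

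Levels of different genes were compared in the authors' TPM, which corrects for transcript length, as a mean over all 9 libraries. Each of 9 members averaged at least 100 TPM, 21 averaged 10 to 100 TPM, 7 averaged 1 to 10 TPM and 7 were below 1 TPM. The family's values summed to 2991 ± 26.1 TPM in PLK2 libraries, 3006 ± 47.6 TPM in PLK2(D223N) libraries and 2947 ± 127 TPM in Vector libraries (SD, n = 3 each). These sums lay closer together than the Vector libraries lay to each other, which ran from 2808 to 3056 TPM. The top 5 members held 60.7% of the family's sum, by mean TPM over all 9 libraries. In every one of the 9 libraries they ran in the same order, DNAJC8, DNAJA1, DNAJB6, DNAJC7 and DNAJB1, with DNAJA3 below them.

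DNAJC8, a class C protein of the spliceosome, was the highest member at 763 TPM. Its levels were 782, 773 and 751 TPM in PLK2 libraries, 749, 707 and 798 TPM in PLK2(D223N) libraries and 755, 778 and 774 TPM in Vector libraries. All 3 groups overlapped on this scale. DNAJC7, which binds both HSP70 and HSP90 through tetratricopeptide repeats, came next in class C at 218.4 TPM, and DNAJC9, a co-chaperone of histones, followed at 106 TPM. DNAJC2, which sits on the ribosome at the exit of the nascent chain, averaged 102.1 TPM and was above DNAJA2 in 7 of the 9 libraries. Neighbours from DNAJA3 to DNAJA2, at 109.6 to 96.64 TPM, traded places between libraries. DNAJA3 was above DNAJB11 in 7 libraries, DNAJB11 above DNAJC9 in 6 and DNAJC9 above DNAJC2 in 5. DNAJA3, DNAJB11 and DNAJC9 were each above DNAJA2 in all 9.

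In class A, the cytosolic DNAJA1 averaged 442 TPM, with 450, 463 and 448 TPM in PLK2 libraries, 460, 450 and 458 TPM in PLK2(D223N) libraries and 366, 454 and 431 TPM in Vector libraries. Vector replicate 1 stood below the other 8 libraries. The mitochondrial DNAJA3 averaged 109.6 TPM and the cytosolic DNAJA2 averaged 96.64 TPM. DNAJA4 was nearly silent at 0.326 TPM, from 24, 14 and 22 counts summed over the PLK2, PLK2(D223N) and Vector libraries. In class B, DNAJB6, which keeps polyglutamine proteins from aggregating, led at 240.1 TPM. DNAJB1 averaged 147.1 TPM and DNAJB11, a lumenal co-chaperone of the endoplasmic reticulum, averaged 106.4 TPM.

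Among the remaining members of the endoplasmic reticulum, DNAJC3 averaged 45.66 TPM, the membrane proteins DNAJB12 and DNAJB14 averaged 31.04 and 30.3 TPM, and DNAJC1 averaged 27.06 TPM. DNAJC14, DNAJC25 and DNAJC16 of the same compartment averaged 34.27, 24.53 and 11.74 TPM. DNAJC10, a reductase of disulfide bonds, averaged 20.53 TPM and DNAJB9, which the unfolded protein response induces, averaged 15.36 TPM. In mitochondria, DNAJC11 averaged 72.34 TPM and DNAJC19, a subunit of the import motor, 31.12 TPM, while DNAJC4 averaged 12.39 TPM. DNAJC5, the cysteine string protein of secretory vesicles, averaged 35.3 TPM, DNAJC13 of endosomes 44.9 TPM and DNAJC6, the uncoating factor auxilin, 11.21 TPM. In the cytosol and nucleus, DNAJC12 averaged 52.16 TPM, DNAJB4 41.24 TPM, DNAJC21, a factor of ribosome assembly, 30 TPM and DNAJC24, which serves in diphthamide synthesis, 20.47 TPM. DNAJB2, which carries ubiquitin-interacting motifs and passes clients to the proteasome, was among the low members at 11.15 TPM. Below it came DNAJC18, DNAJC17, DNAJC30, DNAJC28, DNAJC27, DNAJB5 and DNAJC22, at 8.483 to 4.956 TPM.

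**Figure D1:**
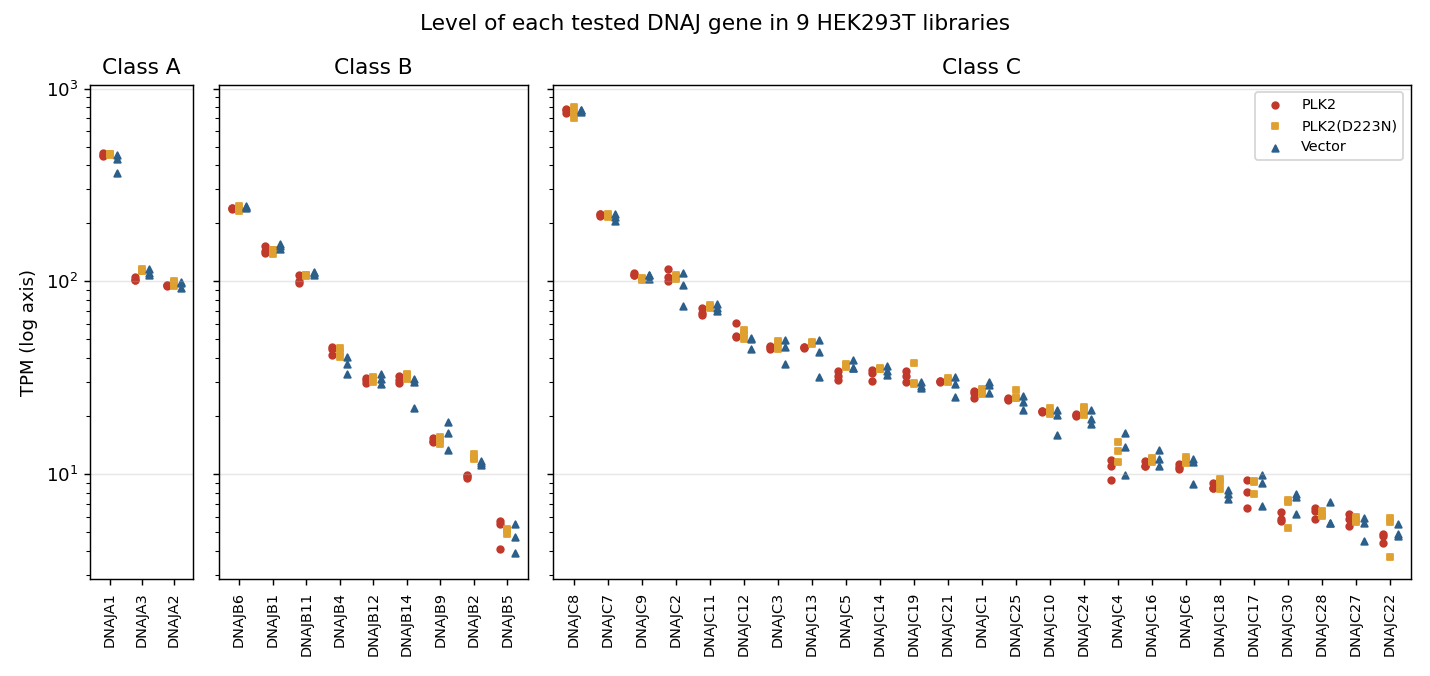
Each point is 1 library, with TPM on a log axis and the tested DNAJ genes of each class ordered by their mean. DNAJC8 at 763 TPM and DNAJA1 at 442 TPM stand at the top, the groups lie over each other for most genes, and single Vector libraries fall below the rest for DNAJA1, DNAJC2, DNAJC13 and DNAJB14.

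Too low for the main test were 7 members. Of these, DNAJB8, DNAJB13 and DNAJC5G are known mainly from testis. DNAJB8 had 0, 2 and 0 counts over the PLK2, PLK2(D223N) and Vector libraries, DNAJB13 had 8, 7 and 7, DNAJC5G had 6, 4 and 6, and DNAJB7 had 11, 21 and 16. DNAJC15, a mitochondrial relative of DNAJC19, had 21, 18 and 9 counts, and DNAJA4 is given above. DNAJC25-GNG10, a readthrough transcript that shares exons with DNAJC25 and with GNG10, had 16, 10 and 13. At these depths a small difference in these 7 genes was not detectable, and their values are given without a fold change. Fits that kept nearly every gene took in all 44 members and called 0 of them in each comparison. Of 17058 genes, edgeR then called 136 with PLK2 against Vector, 5 with PLK2(D223N) against Vector and 35 with PLK2 against PLK2(D223N). Without a filter limma called 28, 4 and 13 of 17076 genes, in the same order.

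The remaining 37 members were tested among 12924 genes. With PLK2 against Vector, 0 of 37 members were called at an adjusted p below 0.05 by edgeR's quasi-likelihood test, where 0.511% of all tested genes were called. DESeq2's Wald test called 0 members there too, beside 116 of the 13089 genes that it gave an adjusted p. An unadjusted p below 0.05 was found for 8 members, or 21.6%, against 16.4% of all genes. The 3 groups of libraries were bulk cultures, in which fewer cells of a kind and less RNA per cell cannot be told apart. The median log2 fold change of the 37 members was 0.02, against 0.00 over all tested genes, with 19 members above 0 and 18 below. PLK2 and Vector libraries did not overlap for 10 members, or 27%, where the share over all genes was 20.1%.

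With PLK2(D223N) against Vector, DESeq2 called 0 members, beside 7 of 17058 genes with an adjusted p. In that comparison edgeR called 0 of 37 members, where it called 0.0232% of all tested genes. Here 3 members had an unadjusted p below 0.05, or 8.11% against 8.53% of all genes, and 9 did not overlap, or 24.3% against 13.9%. The median log2 fold change was 0.02, against 0.01 over all genes. With PLK2 against PLK2(D223N), DESeq2 called 0 members, beside 33 of 13751 genes with an adjusted p. In that comparison edgeR called 0 of 37 members, where it called 0.162% of all genes. There 2 members had an unadjusted p below 0.05, or 5.41% against 6.04%, and 7 did not overlap, or 18.9% against 20.5%. The comparisons of both kinase forms with Vector share the Vector libraries and are not independent of each other.

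Intervals describe the precision of the main fit, which pools the spread of all 9 libraries. The wider spread of the Vector libraries thus enters the intervals of PLK2 vs PLK2(D223N). The narrower spread of the kinase groups enters those against Vector. The 95% interval of the log2 fold change, not adjusted for the number of genes, reached a median of 0.15 to either side with PLK2 against Vector, 0.15 with PLK2(D223N) against Vector and 0.14 with PLK2 against PLK2(D223N). It lay within 0.5 of 0 on either side for 35 of 37 members in PLK2 vs Vector, where DNAJC30 and DNAJC4 were the exceptions. It did so for all 37 in PLK2(D223N) vs Vector, and for 35 in PLK2 vs PLK2(D223N), where DNAJC22 and DNAJC4 were the exceptions. No member had a fitted change of 0.5 or more in either direction, where 2.6%, 1.86% and 1.98% of all genes had one in the same order of comparisons. DNAJC8 had the narrowest interval, 0.10 to either side, and DNAJC4, at 69 to 133 counts per library, the widest.

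**Figure D2:**
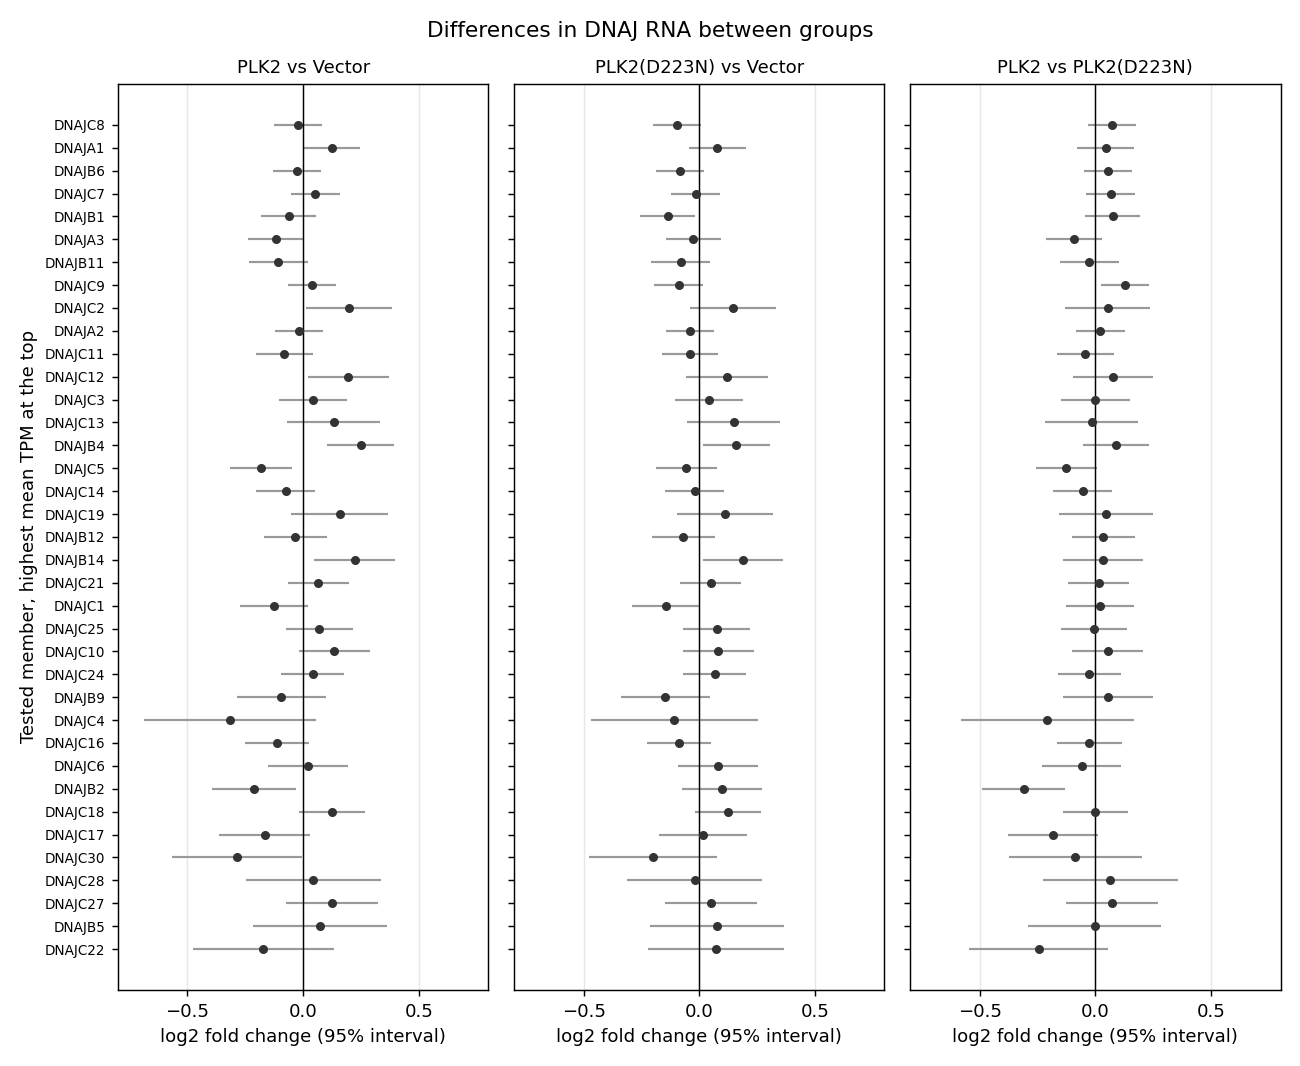
The log2 fold change of each tested member (point) is drawn with its 95% interval (line) for the 3 comparisons, highest mean TPM at the top. Points lie within 0.32 of 0, and the lines widen toward the low genes at the bottom.

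DNAJB2 had the largest difference between the kinase forms. This gene lies on chromosome 2 (219279267 to 219286900, plus strand, GRCh38). It had 11.08, 10.7 and 9.843 CPM in PLK2 libraries, 12.98, 13.39 and 12.85 CPM in PLK2(D223N) libraries and 12.6, 11.65 and 12.36 CPM in Vector libraries. All PLK2 libraries were below all Vector libraries, and all PLK2(D223N) libraries were above them. The log2 fold change was -0.31 with PLK2 against PLK2(D223N) (SE 0.08, 95% interval -0.49 to -0.13), with an unadjusted p of 0.00206 and an adjusted p of 0.321 by edgeR, so it did not pass the test over all genes. Against Vector it was -0.21 with PLK2 (SE 0.08, edgeR adjusted p = 0.246) and 0.10 with PLK2(D223N) (SE 0.08, edgeR adjusted p = 0.672).

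The fit to the 6 PLK2 and PLK2(D223N) libraries alone, which leaves out the wide Vector libraries, did call DNAJB2 (edgeR adjusted p = 0.0335), as did the fit without Vector replicate 1 (edgeR adjusted p = 0.0486). The same fits called DNAJC9, and the 6-library fit also called DNAJC5. These fits call more genes of every kind. The share of all tested genes called was 3.92% in the 6-library fit and 2.43% without Vector replicate 1, beside 3 of 37 and 2 of 38 members.

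DNAJC9 had 124.9, 123.4 and 118.2 CPM in PLK2 libraries, 109.8, 112.6 and 112.8 CPM in PLK2(D223N) libraries and 119.5, 117.5 and 119.5 CPM in Vector libraries. The PLK2(D223N) libraries lay below all others, and PLK2 and Vector libraries overlapped. Its log2 fold change was 0.13 with PLK2 against PLK2(D223N) (SE 0.05, edgeR adjusted p = 0.72). The estimated counts of DNAJC9 were whole numbers in no library, so reads were divided between it and other transcripts. Its exons overlap those of MRPS16 on the same strand and of FAM149B1 on the opposite strand.

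DNAJC5 had 92.32, 89.23 and 94.92 CPM in PLK2 libraries, 101.7, 100.3 and 99.57 CPM in PLK2(D223N) libraries and 115.2, 98.71 and 99.46 CPM in Vector libraries. The PLK2 libraries were the lowest 3 of the 9. With PLK2 the log2 fold change was -0.18 against Vector (SE 0.06, edgeR adjusted p = 0.193) and -0.13 against PLK2(D223N) (SE 0.06, edgeR adjusted p = 0.86). Without Vector replicate 1, the value against Vector was -0.10. Another low member, DNAJC17 of the spliceosome, had 7.978, 7.692 and 7.46 CPM in PLK2 libraries, 8.507, 8.888 and 8.85 CPM in PLK2(D223N) libraries and 8.439, 8.463 and 9.036 CPM in Vector libraries. Every PLK2 library was again below the other 6, with a log2 fold change of -0.18 against PLK2(D223N) (SE 0.09, edgeR adjusted p = 0.865). DNAJC22, a membrane protein, had 6.395, 7.051 and 6.834 CPM in PLK2 libraries, 8.135, 9.752 and 6.146 CPM in PLK2(D223N) libraries and 8.083, 7.284 and 7.438 CPM in Vector libraries. Its PLK2(D223N) libraries enclosed those with PLK2, and the log2 fold change between them was -0.24 (SE 0.14, edgeR adjusted p = 0.888). It was -0.08 without PLK2(D223N) replicate 2 and -0.40 without PLK2(D223N) replicate 3.

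DNAJB4 was the member with the smallest p with PLK2 against Vector. It is a cytosolic class B co-chaperone that heat shock induces, and lies on chromosome 1 (77979175 to 78017964, plus strand, GRCh38). It had 63.83, 66.73 and 58.74 CPM in PLK2 libraries, 62.28, 59.32 and 56.42 CPM in PLK2(D223N) libraries and 49.63, 56.6 and 53.23 CPM in Vector libraries. All PLK2 libraries were above all Vector libraries, while PLK2(D223N) libraries overlapped with Vector. The log2 fold change was 0.25 with PLK2 against Vector (SE 0.07, edgeR adjusted p = 0.116) and 0.16 with PLK2(D223N) against Vector (SE 0.07, edgeR adjusted p = 0.574). Its exons overlap those of GIPC2 on the same strand.

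DNAJB14 had 86.05, 81.79 and 81.63 CPM in PLK2 libraries, 82.34, 82.09 and 79.16 CPM in PLK2(D223N) libraries and 59.67, 79.77 and 74.62 CPM in Vector libraries. Vector replicate 1 was far below the other 8 libraries, which lay between 74.62 and 86.05 CPM. The log2 fold change was 0.22 with PLK2 against Vector (SE 0.08, edgeR adjusted p = 0.214) and 0.19 with PLK2(D223N) against Vector (SE 0.08, edgeR adjusted p = 0.574). Without Vector replicate 1 these were 0.11 and 0.07. DNAJC12, which protects aromatic amino acid hydroxylases, had 23.74, 27.95 and 23.07 CPM in PLK2 libraries, 23.6, 22.78 and 24.58 CPM in PLK2(D223N) libraries and 20.39, 22.68 and 22.31 CPM in Vector libraries. Both kinase groups lay above Vector with narrow gaps, and the log2 fold change with PLK2 against Vector was 0.19 (SE 0.08, edgeR adjusted p = 0.269). For DNAJC12 it was 0.10 without PLK2 replicate 2, and 0.07 after removal of the trends with GC content and length.

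DNAJB1, the heat shock marker of the family, was not called in any comparison. It had 167.3, 156.4 and 154.5 CPM in PLK2 libraries, 153.2, 153 and 148.1 CPM in PLK2(D223N) libraries and 177, 161.9 and 160.2 CPM in Vector libraries. Its PLK2(D223N) libraries were below all Vector libraries, with a log2 fold change of -0.14 (SE 0.06, edgeR adjusted p = 0.574) that was -0.09 without Vector replicate 1, and with PLK2 against Vector it was -0.06 (95% interval -0.18 to 0.06). DNAJC8, in the same comparison of PLK2(D223N) with Vector, had 344.6, 354.2 and 360.8 CPM against 387.4, 364.7 and 381.2 CPM and a log2 fold change of -0.10 (SE 0.05, edgeR adjusted p = 0.574). DNAJC1, which anchors to the membrane of the endoplasmic reticulum, had 26.08, 25.49 and 25.2 CPM with PLK2(D223N) against 29.72, 28.93 and 26.19 CPM with Vector, a log2 fold change of -0.14 (SE 0.07, edgeR adjusted p = 0.574). The PLK2(D223N) and Vector libraries of both genes did not overlap.

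**Figure D3:**
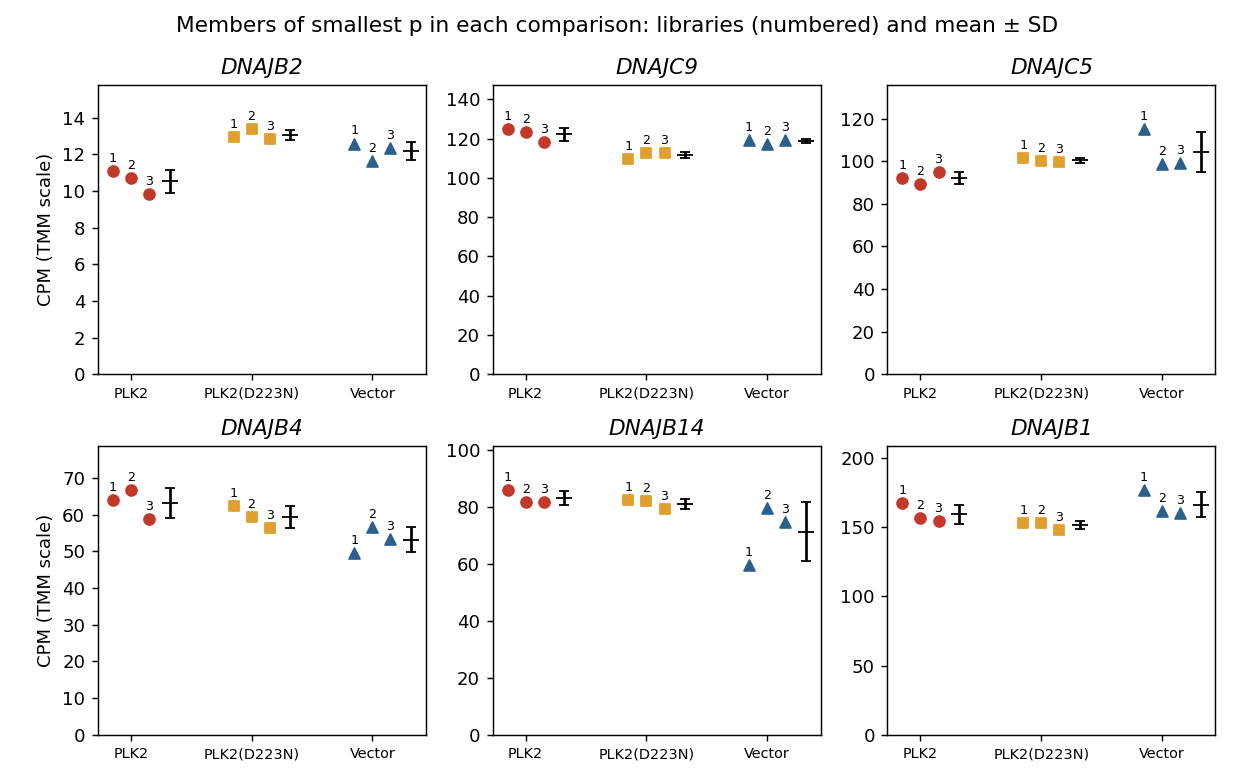
CPM of 6 members, with 1 numbered point per library and a bar for the mean ± SD of 3 libraries, on axes that start at 0. The PLK2 libraries of DNAJB2 lie at 9.843 to 11.08 CPM, below the other 6, and Vector replicate 1 is apart from its group for DNAJB14 (low) and for DNAJC5 (high).

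Of the highest members of class A, DNAJA1 had 511.6, 534.7 and 497.3 CPM in PLK2 libraries, 500.4, 490.3 and 505.9 CPM in PLK2(D223N) libraries and 432.5, 499.8 and 485.4 CPM in Vector libraries. Its log2 fold change with PLK2 against Vector was 0.12 (SE 0.06, edgeR adjusted p = 0.304), and the low Vector library was again replicate 1. DNAJA2 had 146.6, 149.3 and 142.1 CPM in PLK2 libraries, 147.4, 143.8 and 140.4 CPM in PLK2(D223N) libraries and 146.6, 146.5 and 150.3 CPM in Vector libraries. The 3 groups of DNAJA2 overlapped, and its log2 fold change with PLK2 against Vector was -0.02 (95% interval -0.12 to 0.09). DNAJA3 had 132.7, 135.1 and 134.9 CPM in PLK2 libraries, 141.3, 144.9 and 143.1 CPM in PLK2(D223N) libraries and 157.9, 140.1 and 138.7 CPM in Vector libraries. The PLK2 libraries were the lowest 3 for DNAJA3, and its log2 fold change against Vector was -0.12 (SE 0.06, edgeR adjusted p = 0.315). 

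DNAJB6 had 204.8, 212.4 and 204.6 CPM in PLK2 libraries, 196.7, 196.4 and 205.3 CPM in PLK2(D223N) libraries and 217.6, 206.9 and 209.4 CPM in Vector libraries. Its PLK2(D223N) libraries were below all Vector libraries, with a log2 fold change of -0.08 (SE 0.05, edgeR adjusted p = 0.592). DNAJB11 had 75.67, 82.05 and 71.72 CPM in PLK2 libraries, 76.57, 78.02 and 78.98 CPM in PLK2(D223N) libraries and 86.65, 80.19 and 80.09 CPM in Vector libraries. The PLK2(D223N) libraries were again below all Vector libraries, while PLK2 libraries overlapped with both groups, and the log2 fold change with PLK2 against Vector was -0.11 (SE 0.06, edgeR adjusted p = 0.37). DNAJC7 had 185.1, 192.8 and 186 CPM in PLK2 libraries, 176, 177.1 and 185.1 CPM in PLK2(D223N) libraries and 180.3, 176.5 and 187.1 CPM in Vector libraries. Its lowest PLK2 library lay just above its highest PLK2(D223N) library, both at 185.1 CPM when rounded, and both groups overlapped with Vector. Its log2 fold change with PLK2 against Vector was 0.05 (95% interval -0.05 to 0.16).

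Grouped by place in the cell, no list held a called member in any comparison. Of all tested genes, 0.511%, 0.0232% and 0.162% were called in PLK2 vs Vector, PLK2(D223N) vs Vector and PLK2 vs PLK2(D223N). None of the 12 tested members of the endoplasmic reticulum was called, and their median log2 fold change was -0.05 with PLK2 against Vector, where all genes had a median of 0.00. The 4 that the unfolded protein response induces, DNAJB9, DNAJB11, DNAJC3 and DNAJC10, had a median of -0.03. For the 6 tested mitochondrial members the median was -0.10, with DNAJC4 at -0.32 (SE 0.17) and DNAJC19 at 0.16 (SE 0.10) as the ends. With PLK2(D223N) against Vector these medians were 0.01, -0.02 and -0.03, in the same order of lists. DNAJC2 and DNAJC21, which serve the ribosome, had log2 fold changes of 0.20 (SE 0.09, edgeR adjusted p = 0.284) and 0.07 (SE 0.06, edgeR adjusted p = 0.592) with PLK2 against Vector.

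Of the HSP70 genes, the partners on which J domains act, 11 of 12 were tested and HSPA6 was the 1 called. HSPA6, an HSP70 that human cells make mainly under strong heat shock, rose with PLK2 to 1.90 ± 0.51 CPM, against 0.25 ± 0.22 CPM with PLK2(D223N) and 0.35 ± 0.14 CPM with Vector (SD, n = 3 each). Its log2 fold change was 2.39 against Vector (SE 0.40, edgeR adjusted p = 0.0105) and 2.90 against PLK2(D223N) (SE 0.43, edgeR adjusted p = 0.007). The list of 14 genes that heat shock induces, DNAJA1, DNAJA4, DNAJB1 and DNAJB4 among them, does not include HSPA6. Of its 13 tested genes 0 were called in any comparison by edgeR, and their median log2 fold change was 0.08 with PLK2 against Vector. There 4 of these 13 had an unadjusted p below 0.05, with 3 higher and 1 lower, where 16.4% of all tested genes had one. None of 14 nucleotide exchange factors, which release ADP from HSP70, and none of 5 J-domain genes outside the naming pattern was called in any comparison. Of all tested genes, edgeR called 0.511% with PLK2 against Vector, 0.0232% with PLK2(D223N) against Vector and 0.162% with PLK2 against PLK2(D223N). A count of 0 in lists this short lies near those shares. All 12 HSP70 genes together summed to 4039 ± 89.5 TPM in PLK2 libraries, 4196 ± 44.8 TPM in PLK2(D223N) libraries and 4190 ± 30.2 TPM in Vector libraries (SD, n = 3 each). These sums were not corrected for the part of the TPM total that PLK2 RNA takes in libraries with either kinase form. The summed TPM of the family was 0.741 ± 0.013 times that of the HSP70 genes in PLK2 libraries, 0.717 ± 0.0044 times in PLK2(D223N) libraries and 0.703 ± 0.026 times in Vector libraries (SD, n = 3 each).

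Heat shock factor binds repeats of the unit GAA in alternating orientation. Such repeats of 3 units, GAANNTTCNNGAA or TTCNNGAANNTTC, were searched on both strands in the 250 bases before each start in RefSeq promoters (GRCh38.p14), where 41 members had an entry. They occurred in 0.439% of 27305 promoters and in 1 member, DNAJB6. The 2-unit form GAANNTTC or TTCNNGAA, which lies within the longer motif, occurred in 11.7% of promoters and in 4 members, DNAJA1, DNAJB6, DNAJB7 and DNAJC15. The stress element of the unfolded protein response, CCAAT and CCACG with 9 bases of any kind between them, occurred on either strand in 0.0806% of promoters and in none of the 41. A match or its absence in this window describes letters, not binding. The stretches around the match in the tested members DNAJA1 (chr9:33025039-33025118, plus strand) and DNAJB6 (chr7:157336839-157336918, plus strand) are shown since both genes lead their class and neither was called, with the motif in capitals.
DNAJA1: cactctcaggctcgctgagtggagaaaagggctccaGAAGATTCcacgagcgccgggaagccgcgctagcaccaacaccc
DNAJB6: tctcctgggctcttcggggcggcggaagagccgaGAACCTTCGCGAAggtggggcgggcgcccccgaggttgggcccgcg

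A property that the symbols do not use, the GC content of the transcripts, ran with the small differences. Members range from DNAJB4 at 33.1% GC to DNAJC4 at 64.4%. With PLK2 against Vector, the 14 tested members of at least 50% GC had a median log2 fold change of -0.12 with 1 above 0, and the 23 below 50% GC had a median of 0.07 with 18 above 0. Over all tested genes the same medians were -0.07 and 0.06. Across the 37 members, which share the libraries and their depth, Pearson's r between log2 fold change and GC content was -0.812 with PLK2 against Vector, -0.453 with PLK2(D223N) against Vector and -0.707 with PLK2 against PLK2(D223N). Across 12841 tested genes with a GC value it was -0.246, -0.14 and -0.189. Genes are not replicates, and these values describe the libraries.

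Vector replicate 1 itself ran with GC content. Its log2 CPM minus the mean of Vector replicates 2 and 3 had an r of 0.739 with GC content over the 37 members and 0.607 over all genes. It was at least 0.2 below for 9 members, led by DNAJC13 at -0.46, DNAJC2 at -0.38 and DNAJB14 at -0.37, all near 42% GC, and at least 0.2 above for DNAJC5 and DNAJC4. Over all tested genes, 24.3% were at least 0.2 below and 18.6% at least 0.2 above. Among the 9 libraries, Vector replicate 1 was the lowest for 14 and the highest for 11 of the 37 members, where it was the lowest for 31.2% and the highest for 31.1% of all genes. The median SD of log2 CPM within a group was 0.046 with PLK2, 0.035 with PLK2(D223N) and 0.098 with Vector over the members.

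When trends with GC content and length were removed from each library, Pearson's r with GC content across the members was -0.462 with PLK2 against Vector, -0.034 with PLK2(D223N) against Vector and -0.531 with PLK2 against PLK2(D223N). Across all 12841 genes it was 0.001, 0.021 and -0.024, in the same order. DNAJB4 then had a log2 fold change of 0.03 with PLK2 against Vector (SE 0.05, edgeR adjusted p = 0.765), and DNAJB14 one of 0.15 (SE 0.05, edgeR adjusted p = 0.0857). DNAJC5 had a log2 fold change of -0.13 there (SE 0.04, edgeR adjusted p = 0.0857). DNAJB2 had -0.27 with PLK2 against PLK2(D223N) (SE 0.09, edgeR adjusted p = 0.218), and DNAJC9 had 0.12 (SE 0.04, edgeR adjusted p = 0.253). No member was called after this removal, where 408 of 12841 genes were called with PLK2 against Vector, 7 with PLK2(D223N) against Vector and 90 with PLK2 against PLK2(D223N). An unadjusted p below 0.05 by edgeR was then found for 10, 7 and 3 of 37 members, in the same order of comparisons. Over all genes of that fit the shares were 19%, 14.9% and 8.99%.

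**Figure D4:**
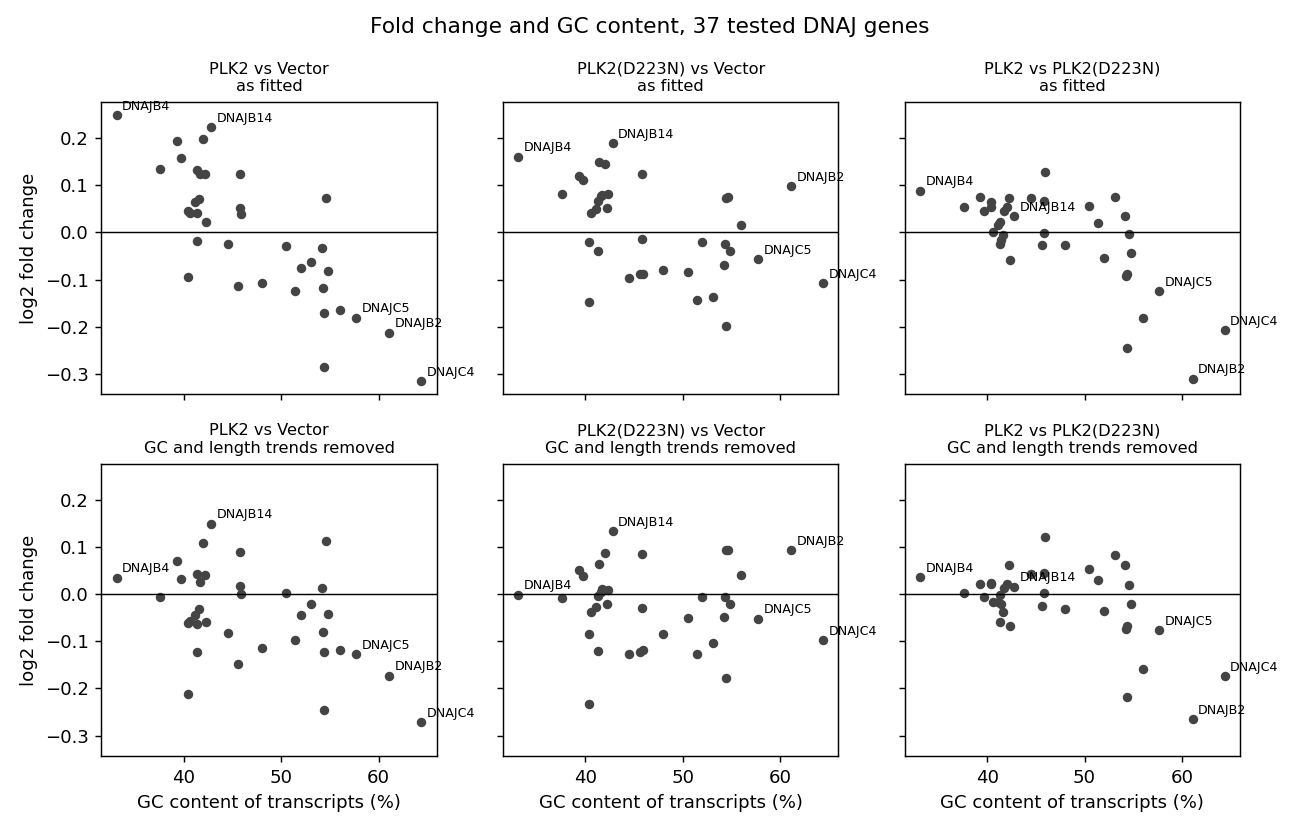
GC content of the transcripts in percent against the log2 fold change of the 37 tested members, as fitted (top) and with GC and length trends removed (bottom), for the 3 comparisons. The downward slope with PLK2 against Vector (r of -0.812) is flatter after the removal (r of -0.462), and DNAJB4 moves to near 0 while DNAJB2 stays among the lowest with PLK2 against PLK2(D223N).

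Single Vector libraries decided whether members were called against Vector. Without Vector replicate 2, 8 of 38 tested members, or 21.1%, were called with PLK2 against Vector, where 12.7% of all tested genes were. DNAJB14, DNAJC13, DNAJC10, DNAJB4 and DNAJC2 were higher in that fit, and DNAJC30, DNAJC5 and DNAJC4 were lower. That fit keeps Vector replicate 1. Its log2 CPM minus the mean of Vector replicates 2 and 3 was -0.46 to -0.14 for the members called higher. For those called lower it was 0.19 to 0.22. The part of Vector replicate 1 in these calls was not tested. In the same fit DNAJB14 was called with PLK2(D223N) against Vector (edgeR adjusted p = 0.0489), where 2.66% of all genes were called. Without Vector replicate 1, DNAJB4 was called with PLK2 against Vector (log2 fold change 0.20, edgeR adjusted p = 0.0357), where 2.79% of all genes were. Leaving out any other library called no member in any of the 3 comparisons.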

How the data were processed

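RNA of 9 HEK293T cultures was measured, and groups were taken from the labels alone. One Vector title has transposed letters and was matched to its column by its number and the remaining Vector titles. Beads with oligo(dT) captured the polyadenylated RNA, per the labels' protocols. Bowtie2, RSEM 1.3.1 and DESeq2 1.4.5 with build GRCh38.p13 are named in the submitters' processing notes. Neither annotation nor strandedness is given in the sources used here, so reads of members whose exons overlap a gene on the opposite strand, among 18 members that overlap a coding gene, may not be separated. Per the file headers, the deposited table gives estimated counts for each gene, which can be fractional, and the authors' TPM and FPKM values. A further 9 per-library columns of scaled counts were not used.

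The estimated counts were rounded, genes kept by filterByExpr on the group (12924 of 17083) and libraries scaled by TMM. All 9 libraries entered edgeR 4.0.16 (glmQLFit, robust, and glmQLFTest), with the group as the only term. P-values were two-sided and adjusted by Benjamini-Hochberg over all tested genes, with a threshold of 0.05. They set each difference against the spread between libraries within groups, estimated per gene from all 9 libraries together. The spread of the Vector libraries therefore enters the comparison of PLK2 with PLK2(D223N) too. Intervals come from the t distribution of that fit. Levels between genes are the authors' TPM, and levels between groups are CPM on the TMM scale. The order of the members was the same in the deposited FPKM. GC content, length and positions came from GENCODE on GRCh38 and promoters from RefSeq. Further tools were DESeq2 1.42.0, limma 3.58.1, R 4.3.3 and Python 3.11.15. The edgeR steps were run on simulated data with the same spread in every group and no GC trend. Such data cannot show how the test behaves with the wider Vector libraries.

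The members and the gene lists were chosen with earlier results of these data known. Named genes are the called members, the 5 of smallest p per comparison and the 3 highest of each class, and further members are named with their levels or counts, or as members of a list or an alternative. Alternatives were the DESeq2 Wald test, scaling by DESeq2 size factors, a stricter filter (10 counts, mean of 1 CPM), keeping every gene with 1 count, the replicate number as a term, the 6 libraries compared only, removal of PLK2 before scaling, removal of GC content and length trends (loess, span 0.3), limma on log2(TPM + 1) for a mean TPM of at least 1 and without that filter, limma on log2(TPM + 0.1), and each library left out.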

Additional observations from a re-analysis of the deposited data

Results flagged for a closer look

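DNAJB2 was the 1 named member whose libraries lay entirely below Vector with PLK2 and entirely above Vector with PLK2(D223N), though neither difference from Vector passed the test. Its level was 10.54 ± 0.63 CPM in PLK2 libraries, 13.07 ± 0.29 CPM in PLK2(D223N) libraries and 12.2 ± 0.49 CPM in Vector libraries (SD, n = 3 each). The difference itself, PLK2 against PLK2(D223N), was -0.31 on the log2 scale (SE 0.08, unadjusted p = 0.00206, edgeR adjusted p = 0.321). Over 20 alternatives it ran from -0.35 to -0.26, with edgeR, DESeq2 or limma adjusted p between 0.0335 and 1. At 61.1% GC, DNAJB2 is the most GC-rich tested member after DNAJC4, and PLK2 RNA itself was at 23744 ± 2384 CPM in PLK2 libraries and 12358 ± 1650 CPM in PLK2(D223N) libraries. The part of that level in the DNAJB2 difference was not tested.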

How the results depend on the processing

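No member was called in 18 of 20 alternatives with PLK2 against Vector, 19 of 20 with PLK2(D223N) against Vector and 18 of 20 with PLK2 against PLK2(D223N). Over the 9 fits that each leave out a library, the count of called members ran from 0 to 8, from 0 to 1 and from 0 to 2 in that order of comparisons. The fit to the 6 libraries compared called 3 members with PLK2 against PLK2(D223N); it tests fewer genes and leaves out the Vector libraries. The labels do not say whether replicate numbers pair the samples. Same-numbered libraries correlated between -0.104 and 0.107 in their deviations, which cannot show how the samples were prepared. With the replicate number as a block 0 members were called in all 3 comparisons. Of 12924 genes, 76, 4 and 20 were called there, in the same order. Of 300 fold changes of the 15 named pairs of gene and comparison, 289 kept direction and side of the threshold, 10 newly passed it and 1 reversed, DNAJB4 with PLK2(D223N) against Vector at -0.0012 (edgeR adjusted p = 0.995) after removal of GC content and length trends. The cause was not tested. The median log2 fold change of the members stayed between -0.0432 and 0.0323, between -0.0206 and 0.0471 and between -0.0402 and 0.0305. All genes called numbered 66 in PLK2 vs Vector and ran from 13 (without PLK2 replicate 2) to 1656 (without Vector replicate 2), 3 in PLK2(D223N) vs Vector and from 2 (6 libraries compared) to 347 (without Vector replicate 2), and 21 in PLK2 vs PLK2(D223N) and from 9 (without PLK2(D223N) replicate 2) to 502 (6 libraries compared). Low counts limit DNAJB5, DNAJC4, DNAJC22, DNAJC28 and DNAJC30, whose intervals are wide, and the 7 untested members.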
